A study of Mus musculus with 16 samples.

Results

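H3K27ac regions that were found in bone marrow-derived macrophages (BMDMs) given IFNγ alone and in BMDMs given PJ34 alone, but neither in untreated cells nor in cells given both agents, were examined. Peaks from the 4 lists of the study were merged wherever they shared at least 1 bp, which gave 55218 regions. A region was kept when it held a peak of the IFNγ 1 h list and a peak of the PJ34 list and no peak of the Control or IFNγ 1 h+PJ34 list. This left 1491 member regions, 2.70% of all merged regions. They made up 4.71% of the regions of the IFNγ 1 h list and 4.14% of those of the PJ34 list. Because the members were chosen by presence and absence in these lists, the strength of their peaks is given as a description and was not tested.

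The cells were primary macrophages grown from the bone marrow of C57BL/6 mice 8 to 12 weeks old. Control cells received neither agent, the IFNγ 1 h group received 100 ng/mL IFNγ for 1 h, the PJ34 group received 20 µM PJ34 for a time not given in the sources used here, and the IFNγ 1 h+PJ34 group received 20 µM PJ34 from 1 h before the IFNγ. Each group had 2 ChIP replicates and 2 input samples, and the authors combined both replicates into a single peak list per group. There is thus no replicate error for any value here, and presence in a list was compared rather than the amount of acetylation. The start sites of all 10 macrophage markers examined, among them Csf1r, Adgre1 and Spi1, carried a peak in each of the 4 lists. No fibroblast marker of 7 did in any list. In each list, 1 of 7 T cell markers, 1 of 6 B cell markers and 3 of 6 dendritic cell markers did. Of 7 neutrophil markers, 1 did in Control (Camp), 2 in IFNγ 1 h and 2 in PJ34 (Camp and S100a8), and 0 in IFNγ 1 h+PJ34.

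Acetylation of histone H3 at lysine 27 is placed by the acetyltransferases CBP and p300 and marks active promoters and enhancers. In macrophages, enhancers are opened by the lineage factor PU.1 together with AP-1 and C/EBP factors, and signal-dependent factors such as NF-κB act at them after stimulation. IFNγ signals through JAK kinases to factors of the STAT family, which bind the GAS element as dimers. PJ34 blocks the catalytic activity of PARP enzymes, PARP-1 foremost, which transfer ADP-ribose from NAD+ to acceptor proteins of DNA repair and of transcription.

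Short sequences that stand for these factors were counted in the members, chiefly TGANTCA, the AP-1 element, GAGGAAGT, a PU.1 element, TTCNNNGAA, the GAS element, and TTCCNGGAA, a stricter GAS element contained in it. The mm10 plus strand is printed 5′ to 3′ throughout, and both strands were searched. In the labels of intergenic members, near names the gene with the nearest protein-coding start site at any distance. That distance was 42.4 kb for Gtdc1, 199 kb for Etnk1, 153 kb for Eci2 and 341 kb for Myc. It was 7.59 kb for Tnfsf14, 166 kb for Ptprc and 845 kb for Cited2. The AP-1 element was denser in the members than in each of the 3 classes of regions they are compared with below, so members that carried it are shown first, with each match in capitals. Of the 20 members with the strongest pairs of peaks, these 3 held 5 or more matches and ranked highest, and the stretch with the most matches is given. They were chosen after the motif counts were seen.
Atxn1 intron, chr13:45623900-45624199: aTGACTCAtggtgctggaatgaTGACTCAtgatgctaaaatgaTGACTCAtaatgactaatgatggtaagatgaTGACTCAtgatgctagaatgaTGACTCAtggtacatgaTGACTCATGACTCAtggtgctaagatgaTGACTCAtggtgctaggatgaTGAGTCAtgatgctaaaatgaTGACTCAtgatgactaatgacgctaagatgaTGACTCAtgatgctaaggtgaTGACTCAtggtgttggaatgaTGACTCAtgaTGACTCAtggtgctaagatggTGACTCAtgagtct
near Gtdc1, chr2:44969416-44969615: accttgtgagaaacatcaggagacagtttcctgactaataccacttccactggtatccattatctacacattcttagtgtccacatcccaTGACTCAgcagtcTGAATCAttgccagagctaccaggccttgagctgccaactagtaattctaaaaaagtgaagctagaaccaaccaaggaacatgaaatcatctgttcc
near Etnk1, chr6:143365993-143366192: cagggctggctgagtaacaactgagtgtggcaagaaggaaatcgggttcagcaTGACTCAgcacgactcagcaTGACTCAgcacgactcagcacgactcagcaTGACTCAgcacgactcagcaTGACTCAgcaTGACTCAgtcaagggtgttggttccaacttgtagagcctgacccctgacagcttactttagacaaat

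In the Atxn1 and Etnk1 stretches a short unit recurs many times. The first holds 15 AP-1 matches in 300 bp and the second 5 in 200 bp, whereas the Gtdc1 stretch holds 2 matches a few bases apart. Other members had a TGAGTCA or TGACTCA match close to the summit of the IFNγ peak. Of the first 4 of these by peak strength, 3 are shown, each with a single match. Windows of 200 bp centred on that summit follow, with the match in capitals.
near Eci2, chr13:35147422-35147621: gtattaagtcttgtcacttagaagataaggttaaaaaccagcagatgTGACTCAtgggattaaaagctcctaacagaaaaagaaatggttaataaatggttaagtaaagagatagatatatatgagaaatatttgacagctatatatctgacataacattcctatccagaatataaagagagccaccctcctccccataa
near Myc, chr15:62328636-62328835: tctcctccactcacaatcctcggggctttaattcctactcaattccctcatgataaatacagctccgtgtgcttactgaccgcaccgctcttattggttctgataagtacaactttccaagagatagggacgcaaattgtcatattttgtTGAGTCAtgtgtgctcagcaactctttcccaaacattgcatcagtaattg
near Tnfsf14, chr17:57201655-57201854: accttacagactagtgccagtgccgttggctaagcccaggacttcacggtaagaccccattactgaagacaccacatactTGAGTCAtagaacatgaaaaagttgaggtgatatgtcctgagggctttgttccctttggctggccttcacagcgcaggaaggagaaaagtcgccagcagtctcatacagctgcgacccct

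The strict GAS element was found near the summit of few members. The first 4 by peak strength are printed with the element in capitals, and they ranked 93, 483, 771 and 850 among the 1491 members.
near Ptprc, chr1:138009321-138009520: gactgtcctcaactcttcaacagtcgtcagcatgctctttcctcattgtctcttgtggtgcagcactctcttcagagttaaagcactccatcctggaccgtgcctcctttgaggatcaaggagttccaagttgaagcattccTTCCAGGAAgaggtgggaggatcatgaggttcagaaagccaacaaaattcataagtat
Ralgps1 intron, chr2:33359625-33359824: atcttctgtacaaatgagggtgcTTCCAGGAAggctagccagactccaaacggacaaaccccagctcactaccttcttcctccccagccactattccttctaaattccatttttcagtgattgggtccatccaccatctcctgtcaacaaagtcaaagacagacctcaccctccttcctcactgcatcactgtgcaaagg
Ppfibp2 intron, chr7:107628062-107628261: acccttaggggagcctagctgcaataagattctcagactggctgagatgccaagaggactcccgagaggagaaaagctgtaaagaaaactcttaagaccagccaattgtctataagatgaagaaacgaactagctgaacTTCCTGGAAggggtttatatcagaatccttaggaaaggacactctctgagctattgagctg
near Klf6, chr13:5834190-5834389: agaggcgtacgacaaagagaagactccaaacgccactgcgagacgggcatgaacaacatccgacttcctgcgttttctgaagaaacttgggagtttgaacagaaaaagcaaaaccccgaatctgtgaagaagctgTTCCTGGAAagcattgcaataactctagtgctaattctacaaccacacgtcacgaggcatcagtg

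For comparison, the 200 bp around the IFNγ summit of the strongest 2 members held no match to the AP-1, GAS or PU.1 element and are printed without capitals. In the first, all 19 AP-1 matches of the member lay outside this window.
Atxn1 intron, summit, chr13:45623599-45623798: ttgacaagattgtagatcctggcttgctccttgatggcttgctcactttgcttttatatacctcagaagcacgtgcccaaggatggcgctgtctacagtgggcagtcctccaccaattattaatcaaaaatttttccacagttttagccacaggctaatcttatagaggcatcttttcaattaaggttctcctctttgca
near Cited2, summit, chr10:16878155-16878354: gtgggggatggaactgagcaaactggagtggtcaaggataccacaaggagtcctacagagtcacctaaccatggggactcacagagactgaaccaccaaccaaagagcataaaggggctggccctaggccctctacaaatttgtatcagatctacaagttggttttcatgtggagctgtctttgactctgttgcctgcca

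The members were mostly weak peaks. In the IFNγ 1 h list, their peaks had a median fold enrichment over background of 3.54, with a range of 1.93 to 11.5. In the PJ34 list the median was 3.67 and the range 1.70 to 14.7. Each peak was also placed by its −log10 p among all peaks of its own list, where a percentile of 100 is the strongest peak. The median percentile was 22.1 in the IFNγ 1 h list and 29.1 in the PJ34 list. Both peaks lay below percentile 50 in 1233 members and below percentile 25 in 400, both lay above percentile 50 in 51, and none had both above percentile 75. Both peaks had a q-value under 0.05 in 1411 members, 94.6% of them. Such a q-value was usual for any peak, with 98.3% of all peaks in the IFNγ 1 h list and 99.6% in the PJ34 list.

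A member was typically narrow and had a single peak of each list. Exactly 1 peak of each list was present in 1409 members, and the median width of a member was 527 bp, with a range of 195 to 2315 bp. The summits of the IFNγ peak and the PJ34 peak lay a median of 69 bp apart, and in 931 members (62.4%) they were within 100 bp of each other. Peak strength in the 2 lists was loosely related across the 1491 members, with a Pearson's r of 0.257 and a Spearman's rank correlation of 0.216 between percentiles. This relation is a description only, since neighbouring regions share libraries and the rule set which peaks could enter.

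**Figure D1:**
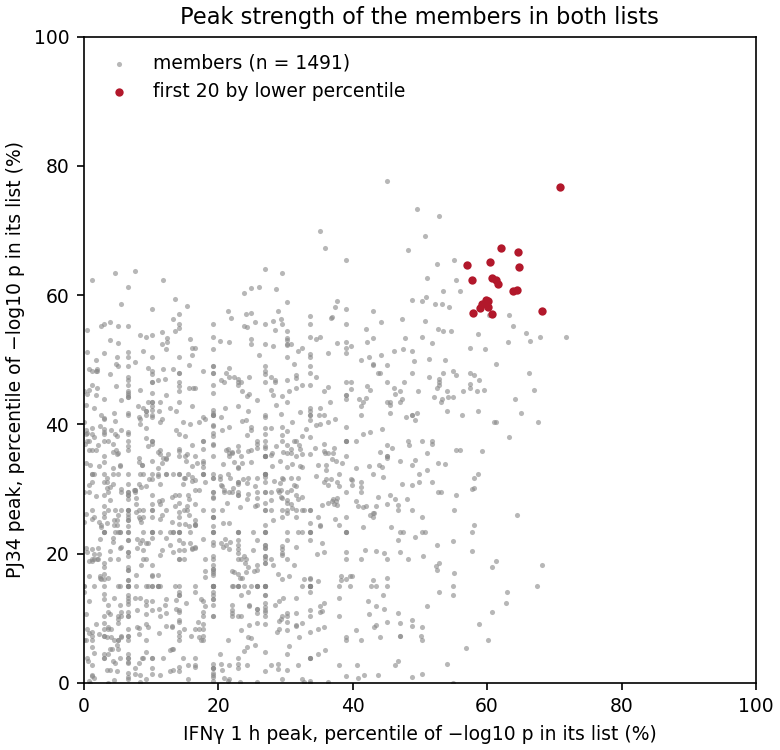
Each point is 1 of the 1491 members, with the percentile of its IFNγ 1 h peak within that list on the x axis and the percentile of its PJ34 peak within that list on the y axis, both in %. Most points lie below percentile 50 on both axes, and the 20 members with the highest lower percentile, in red, lie between 57 and 77.

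Absence from a list did not mean that a peak was far away. A Control peak lay within 1000 bp of 557 members (37.4%) without overlapping them, and an IFNγ 1 h+PJ34 peak lay within 1000 bp of 313 (21.0%). One or the other did so for 630 members. At the edge of the rule, a member near Slco3a1 on chromosome 7 began directly after the end of a Control peak, with 0 bp between them, and its percentiles were 3.01 in IFNγ 1 h and 18.6 in PJ34. Just outside the rule, a region near Ctbp2 shared 15 bp with a Control peak, and its percentiles were 19.2 and 30.6. Both regions had weak peaks and fell on opposite sides of a rule of 1 bp.

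The strongest member lay in an intron of Atxn1, which encodes ataxin-1, at chr13:45622905-45624982. Its IFNγ 1 h peak had a fold enrichment of 11.3 and a percentile of 70.8, its PJ34 peak a fold enrichment of 13.4 and a percentile of 76.8. The nearest Control and IFNγ 1 h+PJ34 peaks were 68.9 kb and 68.2 kb away. It is the member with the AP-1 array printed above.

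The second member, at chr10:16877417-16878910, was intergenic, 845 kb from the nearest start site, that of Cited2, which encodes a CBP/p300-binding regulator. It had fold enrichments of 7.97 in IFNγ 1 h and 8.39 in PJ34. The third lay in an intron of Trpm7, an ion channel with a kinase domain, at chr2:126792880-126794080, with fold enrichments of 8.91 and 8.49. Ranking by the weaker of both peaks favours members of like strength under both agents, as these 3 were.

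Among the others of the 20, one at chr16:24075538-24076131 lay 87.0 kb from Bcl6, a transcriptional repressor, with fold enrichments of 8.07 in IFNγ 1 h and 8.13 in PJ34. Unlike the Atxn1 member, it had a Control peak 0.278 kb away and an IFNγ 1 h+PJ34 peak 0.234 kb away. A member at chr13:20162695-20164264 in an intron of Elmo1, which acts with DOCK proteins to activate Rac, had fold enrichments of 7.79 and 7.37. A member in an intron of Ext1, a heparan sulfate polymerase, had fold enrichments of 7.72 and 7.53, and one 26.4 kb from Kcna3, a potassium channel of leukocytes, 8.70 and 7.28. The Kcna3 member had a Control peak 0.168 kb away.

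Over the 20 strongest members, fold enrichment ranged from 4.90 to 11.3 in IFNγ 1 h and from 5.16 to 13.4 in PJ34. Of the 20, 9 lay in introns, 11 were intergenic and none was at a promoter. The others were nearest to Gtdc1, A630010A05Rik, Etnk1, Rap1b, Msantd3, Eci2, Cubn, Cldn4, Tpr, Tex13c3 and Zeb1. An AP-1 match was present in 14 of the 20, a GAS match in 9 and a PU.1 match in none.

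To ask whether the members resemble other regions that came and went between conditions, they were compared with 3 classes that were likewise present in exactly 2 lists. The first holds the 2009 regions found in Control and IFNγ 1 h+PJ34 only, the mirror image of the members. The second holds 1264 regions found in IFNγ 1 h and IFNγ 1 h+PJ34 only, which are gained with IFNγ irrespective of PJ34. The third holds 2231 regions found in Control and PJ34 only, which are lost with IFNγ irrespective of PJ34. Position and sequence were not used by the rule and could be compared. Intervals are 95% and cover counting error only, and neighbouring regions are not independent.

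Members were distal. Of the 1491, 753 (50.5%) lay in introns of protein-coding genes, 620 (41.6%) were intergenic and 34 (2.28%) lay in exons. Only 84 lay within 1000 bp of a start site, a promoter share of 5.63% (4.52 to 6.93, exact Clopper-Pearson), against 20.9% of all merged regions. The promoter share was 3.91 percentage points lower than that of regions lost with IFNγ (Newcombe interval −5.58 to −2.19) and 1.84 points higher than that of regions gained with IFNγ (0.234 to 3.42). From the mirror class it differed by 0.308 points, with an interval of −1.20 to 1.88 that includes no difference. The median distance of a member from a start site was 24.3 kb.

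**Figure D2:**
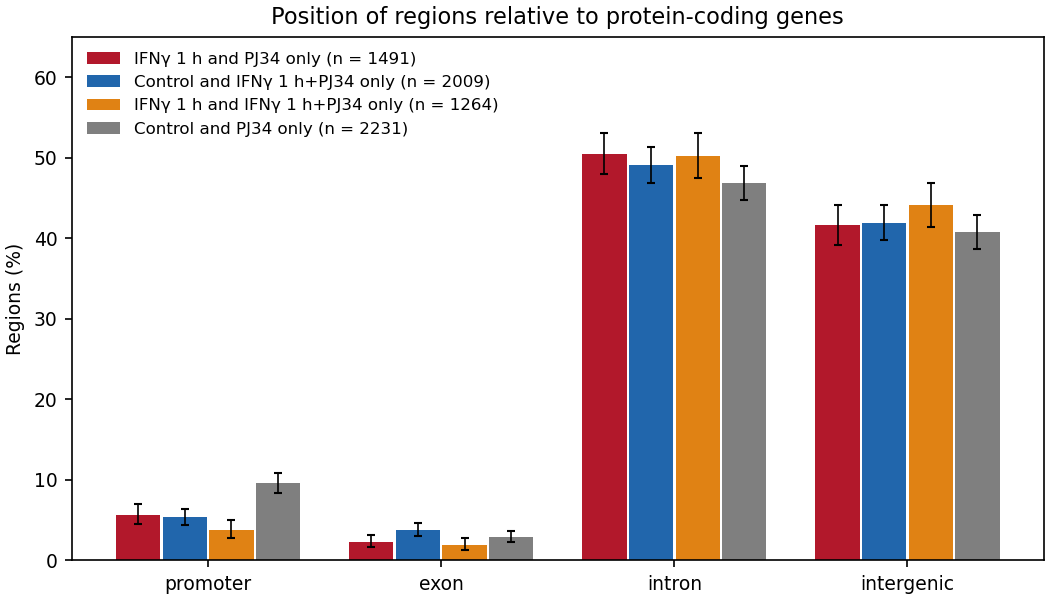
Bars give the share of regions, in %, at promoters (within 1000 bp of a start site), in exons, in introns and in intergenic sequence for the members and the 3 compared classes, and error bars are exact 95% intervals of counting error. The members have a promoter share of 5.63%, close to the mirror class, and below the 9.55% of the Control and PJ34 class.

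The 84 promoter members were also weak. The strongest was at the start site of Afap1, an actin-filament-associated protein, with fold enrichments of 5.96 in IFNγ 1 h and 6.20 in PJ34 and no Control peak within 135 kb. The member at Olr1, which encodes a scavenger receptor for oxidised LDL, had 3.59 and 4.10, and that at Il7, a lymphoid cytokine gene, had 4.19 and 6.20. These promoter members were named after their values were seen.

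Members lay closer to stable acetylated sites than regions gained with IFNγ did. The nearest region found in all 4 lists was a median of 7.98 kb away for members, 10.1 kb for the mirror class, 12.4 kb for regions gained with IFNγ and 4.82 kb for regions lost with IFNγ. Within 1000 bp of such a region were 21.6% of members, which was 8.94 points more than of regions gained with IFNγ (6.14 to 11.7) and 7.72 points fewer than of regions lost with IFNγ (−10.5 to −4.87). The difference from the mirror class was 2.03 points (−0.662 to 4.77). The median GC content of members was 44.0%, and that of the compared classes was 43.5 to 46.4%.

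Members were found on every autosome and on the X chromosome. Their share of the merged regions ranged from 1.89% on chromosome 17 to 3.81% on chromosome 13. The interval for chromosome 13, 3.10 to 4.64, lay above the 2.70% of all regions, and that for chromosome 17, 1.38 to 2.52, lay below it. These 2 chromosomes were the extremes of 20 and were picked for that.

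Members often lay close to each other, as did regions of the compared classes. Another member lay within 50 kb of 599 members, 40.2% of them. The same share, each class taken on its own, was 43.1% in the mirror class and 32.3% in regions gained with IFNγ. It was 47.0% in regions lost with IFNγ, and the classes differ in size. The densest stretches of 100 kb or less each held 6 members. One spanned 52.3 kb between Rassf6 and Cxcl5, a neutrophil chemokine, at chr5:90694088-90746347, with median percentiles of 35.2 in IFNγ 1 h and 34.7 in PJ34. Another lay within Rbm47, an RNA-binding protein gene, and another covered Zeb2 and the sequence towards Gtdc1. The last of these lay far from any start site, with Stk31 the nearest gene, and spanned only 6.03 kb. Near Hs1bp3 on chromosome 12, 5 members likewise fell within 6.65 kb. In such runs of adjacent short peaks, a single broad site can be counted as several members.

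By gene, 882 of 21938 protein-coding genes held at least 1 member in their body or the 10 kb before their start, and 155 held 2 or more. These counts take no account of gene length. Rbm47 and Zeb2, a transcription factor that maintains tissue macrophage identity, held 6 each. Ext1, Psd3, Slc6a6, the taurine transporter, and Zdhhc20, a palmitoyltransferase, held 5 each. Fgfr2, whose annotated body spans 2961 kb, Lyn, a Src-family kinase of myeloid cells, Prkch, a protein kinase C, and Prr5l, an mTORC2-associated protein, held 4 each. The genes named here also held regions found in all 4 lists, from 3 in Zdhhc20 to 34 in Fgfr2. The 6 members in Rbm47 had IFNγ 1 h percentiles of 0.902 to 43.0 and PJ34 percentiles of 0.0125 to 34.0, and none held an AP-1 match. The 5 in Zdhhc20 had percentiles of 1.59 to 39.0 and 9.06 to 51.1 and held 8 AP-1 matches between them.

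The AP-1 element was denser in the members than in the 3 compared classes. Members held 495 matches to TGANTCA, 0.546 per kb. The mirror class held 0.310 per kb, regions gained with IFNγ 0.375 and regions lost with IFNγ 0.379. The ratio of densities was 1.76 to the mirror class (exact interval of Poisson counts 1.55 to 2.00), 1.46 to regions gained with IFNγ (1.28 to 1.66) and 1.44 to regions lost with IFNγ (1.27 to 1.63). All 3 intervals stayed above 1 when widened to 99.8% for the 21 motif comparisons made. Across the 14 other combinations of lists that a region could be found in, AP-1 density ranged from 0.298 to 0.486 per kb, so none reached that of the members. Next came the 3024 regions missing from IFNγ 1 h+PJ34 alone, which differ from the members by a Control peak, with 0.486. Against these, a comparison made after the densities were seen, the ratio was 1.12 (1.01 to 1.25), and without the Atxn1 member it was 1.08 with an interval of 0.975 to 1.20 that includes 1. In windows around the summits it was 1.16 (0.969 to 1.38). The share of regions with a match went the other way, at 24.6% of members against 35.8% of these regions. These regions are wider, with a median of 812 bp against 527 bp. In the windows the share was 11.4% against 12.9%, a difference of −1.50 points (−3.45 to 0.567).

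**Figure D3:**
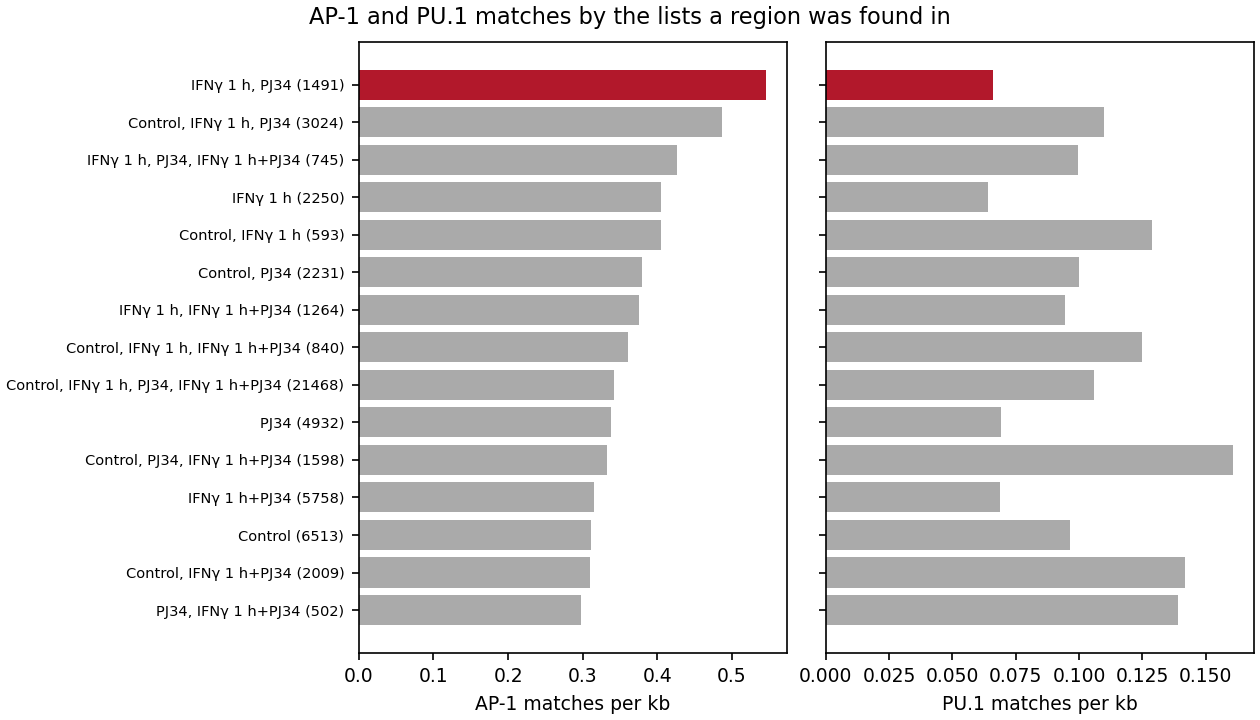
Bars give AP-1 matches (TGANTCA, left) and PU.1 matches (GAGGAAGT, right) per kb of region for each of the 15 combinations of lists, ordered by AP-1 density, with the number of regions in brackets. The members, in red, have the highest AP-1 density, 0.546 per kb, and one of the lowest PU.1 densities, 0.0662 per kb.

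Matches were spread over many members. At least 1 AP-1 match was present in 367 members, 24.6% of them (22.4 to 26.9), and 285 of these held exactly 1. The same share was 20.4% in the mirror class and 20.5% in regions lost with IFNγ, which is 4.26 (1.46 to 7.08) and 4.09 points (1.35 to 6.86) fewer than in members. It was 26.4% in regions gained with IFNγ and 28.6% over all merged regions. Mean width differed, at 608 bp for members, 880 bp for regions gained with IFNγ and 1255 bp for all merged regions, whose AP-1 density was 0.351 per kb. In windows around the summits, which average 299 bp per region in members and 298 to 302 bp in the classes, 11.4% of members held a match. This was 2.94 points more than in the mirror class (0.945 to 5.00), 2.94 more than in regions gained with IFNγ (0.687 to 5.16) and 2.57 more than in regions lost with IFNγ (0.608 to 4.61). The density ratios in these windows were 1.39 (1.12 to 1.72), 1.39 (1.10 to 1.78) and 1.29 (1.05 to 1.57). TCANTGA, a control with the ends of the AP-1 element exchanged, was as dense there in members, at 0.420 per kb against 0.413 for AP-1. Its ratios were 1.55 (1.25 to 1.93), 1.06 (0.850 to 1.32) and 1.25 (1.02 to 1.52), so near the summits the excess over the mirror class and over regions lost with IFNγ was shared by the control.

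Leaving out the Atxn1 member or the promoters changed the ratios to the 3 compared classes little. Without that member, the 3 ratios were 1.70, 1.40 and 1.39, and without promoter regions 1.78, 1.48 and 1.41. Pooled within 3 groups of regions by GC content, they were 1.75, 1.47 and 1.41. With repeat-masked sequence left out they were 1.71, 1.40 and 1.41. All of these intervals excluded 1.

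The forms of the element were then counted apart. TGAGTCA and TGACTCA, the forms that AP-1 binds best, were 1.99 times as dense in members as in the mirror class (1.69 to 2.33), 1.69 times as dense as in regions gained with IFNγ (1.43 to 1.99) and 1.62 times as dense as in regions lost with IFNγ (1.39 to 1.90). For the forms with A or T at the centre, the ratios were 1.40 (1.13 to 1.75), 1.12 (0.893 to 1.40) and 1.15 (0.930 to 1.43). For the control TCANTGA over whole regions, they were 1.24 (1.08 to 1.43), 0.984 (0.850 to 1.14) and 1.05 (0.916 to 1.21). These counts were added after the AP-1 result was seen, and the difference between forms was not tested. Within members, AP-1 matches were less dense close to the summits, at 0.413 per kb, than in the rest of the region, at 0.674 per kb. The direction was the same in the mirror class (0.297 and 0.319), regions gained with IFNγ (0.296 and 0.416) and regions lost with IFNγ (0.321 and 0.429). In members it also held for the GAS (0.337 and 0.419) and PU.1 (0.0583 and 0.0737) elements, but not for TCANTGA (0.420 and 0.325).

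The PU.1 element went the other way over whole regions. Members held 60 matches to GAGGAAGT, 0.0662 per kb, against 0.104 per kb over all merged regions. Regions found in a single list of treated cells were similar to members. They held 0.0641 per kb for IFNγ 1 h alone, 0.0692 for PJ34 alone and 0.0687 for IFNγ 1 h+PJ34 alone. At least 1 was present in 3.69% of members (2.79 to 4.77) and in 11.2% of all merged regions, which are wider on average. The density ratio was 0.467 to the mirror class (0.345 to 0.625), 0.701 to regions gained with IFNγ (0.502 to 0.972) and 0.661 to regions lost with IFNγ (0.481 to 0.899). Only the first stayed below 1 when widened for the 21 comparisons. In 200 bp windows at the summits all 3 intervals included 1, and the ratios were 0.873 (0.512 to 1.47), 1.31 (0.683 to 2.57) and 0.814 (0.485 to 1.34). In the mirror class, PU.1 matches lay mostly away from the summits, at 0.191 per kb outside the windows and 0.0668 per kb within them.

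The GAS element was less dense in members than in regions gained with IFNγ. Members held 0.378 matches per kb to TTCNNNGAA and regions gained with IFNγ held 0.623, a ratio of 0.607 (0.532 to 0.692). For the strict element the densities were 0.0364 and 0.115 per kb, a ratio of 0.316 (0.209 to 0.467). Over all merged regions the densities were 0.340 per kb for GAS and 0.0382 for the strict element, close to those of members. The share of regions with a match was lower in members, 19.6% against 29.0% for GAS and 2.15% against 4.50% for the strict element, but members are narrower on average. Against the mirror class, the GAS ratio was 1.07 (0.933 to 1.23). Members were richer in GAS than regions lost with IFNγ, with a ratio of 1.36 (1.18 to 1.58). That interval came to include 1 in windows around the summits, at 1.16 (0.929 to 1.44).

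Of the other elements, GAAANNGAA, the core of the ISRE bound by IRF and ISGF3 factors, was less dense in members than in the mirror class, with a ratio of 0.769 (0.674 to 0.875), and than in regions gained with IFNγ, with a ratio of 0.752 (0.655 to 0.862). To regions lost with IFNγ the ratio was 0.979 (0.853 to 1.12). TTGCNNAA, a C/EBP element, and GAANNNTTC, the GAS control with exchanged ends, had ratios of 0.918 to 1.17 with intervals that included 1. ISRE core and C/EBP matches were present in regions of all classes, and a match of letters is not a bound site.

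**Figure D4:**
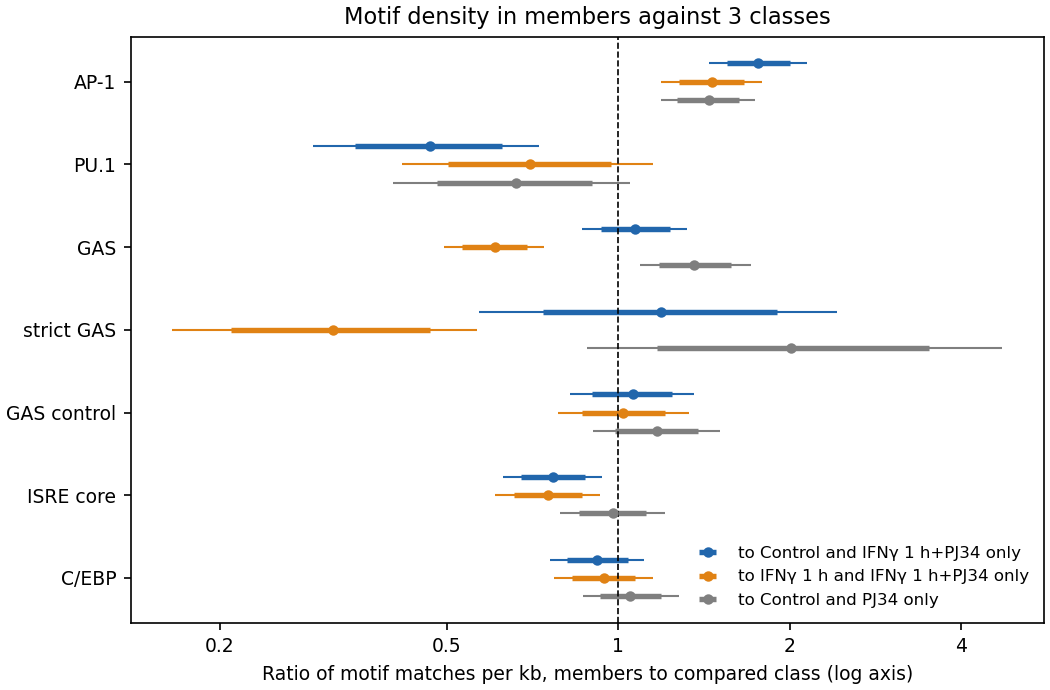
Points give the ratio of motif matches per kb in the members to that in each of the 3 compared classes on a log axis, thick lines the 95% intervals of Poisson counts and thin lines the intervals widened to 99.8% for 21 comparisons. AP-1 ratios of 1.44 to 1.76 lie above 1 for all 3 classes, and the GAS ratio lies below 1 only against the IFNγ 1 h and IFNγ 1 h+PJ34 class.

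Genes near the members were read from 10 lists of genes. Of 21938 protein-coding genes, 7.78% had a member within 50 kb of a start site, as had 10.5% of the 9691 genes with a region of all 4 lists at a start site, which is the closer background for genes active in these cells. Of all protein-coding genes, 10.3% were as near to a region of the mirror class, 7.13% to one gained with IFNγ and 13.2% to one lost with IFNγ, classes that differ in size. The lists were chosen with results of these data known, and no set test was made. A gene near a member need not be its target.

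Within 50 kb, 5 of 49 IFNγ-response genes (10.2%, 3.40 to 22.2) were near a member, close to the 10.5% of active genes above. Of the 35 listed genes with a region of all 4 lists at a start site, 4 (11.4%) were. The share was 6.12% within 10 kb, against 2.02% of all protein-coding genes, and 20.4% within 100 kb, against 13.4%. By contrast, 21 of the 49 were near a region gained with IFNγ irrespective of PJ34. Among the 5 near a member were Socs3, the feedback inhibitor of JAK signalling, Irf1, Nos2, the inducible nitric oxide synthase, and Cd274, which encodes PD-L1. The Socs3 member, in an intron of the neighbouring Pgs1 31.8 kb from the Socs3 start, was the strongest, with percentiles of 51.8 in IFNγ 1 h and 52.6 in PJ34. Nos2 had 2 members. One lay at its start site, with fold enrichments of 3.57 and 3.30, and the other 35.3 kb away, with 5.68 and 3.55. The latter had a Control peak 0.254 kb away and an IFNγ 1 h+PJ34 peak 0.549 kb away. The Irf1 member lay 9.51 kb from an Irf1 start site, with 2.72 and 3.46 and with 2 GAS matches.

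Of 33 genes of the IFNγ receptor, JAK, STAT and SOCS families, 6 (18.2%, 6.98 to 35.5) were near a member. Near the mirror class there were likewise 6, near regions gained with IFNγ 10 and near regions lost with IFNγ 14. They include Socs3 again, with Ifngr1, which encodes the ligand-binding receptor chain, Stat4, and the phosphatase genes Ptpn1 and Ptpn2, which dampen JAK-STAT signalling. The Ptpn2 member was among the weakest in IFNγ 1 h, at percentile 0.280, and reached 38.5 in PJ34.

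Of the Toll-like receptor and NF-κB genes, 11 of 39 (28.2%, 15.0 to 44.9) were near a member, with 18 different members. Near the mirror class there were 7, near regions gained with IFNγ 6 and near regions lost with IFNγ 12. Those of receptors and adaptors were Tlr4, which senses lipopolysaccharide, Tlr9, which senses DNA, Ticam1 and Tirap. Those of kinases were Irak1, Irak2 and Ikbkb, and those of the NF-κB factors and their regulators were Nfkb1, Nfkb2, Nfkbiz and Tnip1. Nfkb1, which encodes p105/p50, had 4 members within 50 kb, with IFNγ 1 h percentiles of 0.902 to 22.1 and PJ34 percentiles of 12.1 to 41.5. Tlr4 had 2 in an intron, at IFNγ 1 h percentiles of 44.4 and 46.8 and PJ34 percentiles of 33.4 and 10.8, each with an AP-1 match. These 2 lay side by side, at chr4:66837828-66838642 and chr4:66836656-66837702, and may be a single site. The PJ34 peak stood higher in its list than the IFNγ peak in 12 of the 18, as it did in 889 of all 1491 members (59.6%). The Nfkb2 member had percentiles of 14.2 in IFNγ 1 h and 55.5 in PJ34.

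Among chemokine, cytokine and receptor genes, 13 of 52 (25.0%, 14.0 to 38.9) were near a member, with 18 different members. Near the mirror class there were 13, near regions gained with IFNγ 11 and near regions lost with IFNγ 27. Several were cytokines of activated macrophages: Il1a and Il1b, Il1rn, which encodes the IL-1 receptor antagonist, Il10, Il12b, Il18, Cxcl3, Csf1, Osm and Lif. The receptor genes were Il10ra, Tgfbr1 and Csf2ra. The Il12b member lay 22.3 kb before its start and was the strongest of them, with percentiles of 52.5 and 64.9 and a Control peak 0.218 kb away. Il1a, Il1rn and Lif each had 3 members, 1 of them at a start site. The 2 members downstream of the Il1rn start, 13.8 and 14.5 kb away, were strong under PJ34, with fold enrichments of 8.26 and 8.62, and weak under IFNγ, with 2.59 and 2.36. They lay side by side, at chr2:24358104-24359374 and chr2:24359520-24360507, and may be a single site. Osm and Lif are neighbours and share 2 members.

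DNA repair and damage response genes were listed because PARP-1 is activated by DNA breaks. Of 35, 9 (25.7%, 12.5 to 43.3) were near a member, all 9 among the 33 with a region of all 4 lists at a start site. Near the mirror class there were 2, near regions gained with IFNγ 0 and near regions lost with IFNγ 6. The genes were Xrcc4 of end joining, Polb, Aptx and Ogg1 of base excision and single-strand break repair, Ddb1, Atm, Trp53, Mdm2 and Cdkn1a, which encodes the cell cycle inhibitor p21. Most of these members lay at some distance or in a neighbouring gene: the Polb member lay in an intron of Ikbkb, 40.4 kb away, and the Mdm2 member at the start site of Slc35e3, 35.0 kb away. Those of Cdkn1a and Atm lay close, that of Cdkn1a at 0.959 kb, with percentiles of 26.9 in IFNγ 1 h and 4.84 in PJ34, and that of Atm at 1.34 kb, with 6.60 and 17.5. Within 10 kb the count was 2 of 35, 5.71% against 2.02% of all protein-coding genes. Within 50 kb the share was 8.57% when peaks up to 1000 bp apart were joined, which left 754 members. The share over all genes at that setting is not available, so 8.57% cannot be set against 7.78% or 10.5%.

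Of 19 PARP family genes, 5 (26.3%, 9.15 to 51.2) were near a member: Parp3, Parp8, Parp9, Parp14 and Tiparp. Near the mirror class there were 7, and near regions gained and regions lost with IFNγ 2 each. The member closest to a start site was one of 3 around Tiparp, which encodes the mono-ADP-ribosyltransferase PARP7. Of these, the one in an intron of Tiparp had percentiles of 64.2 in IFNγ 1 h and 43.9 in PJ34. Parp9 and Parp14, which lie side by side on chromosome 16, share a member with percentiles of 39.0 and 57.8. Parp1 itself had none.

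Of 20 genes listed as active in macrophages without stimulation, 7 (35.0%, 15.4 to 59.2) were near a member: the transcription factor genes Spi1, Maf, Mitf, Runx1, Irf5 and Zeb2, and Itgam, which encodes CD11b. Only 10 of the 20 had a region of all 4 lists at a start site, and 3 of these 10 were near a member. Near the mirror class there were 4 of the 20, near regions gained with IFNγ 3 and near regions lost with IFNγ 9. The Spi1 member was intronic and weak in IFNγ 1 h, at percentiles of 6.60 and 36.6, although the Spi1 start site itself was near the top of every list.

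The remaining lists lay near or below the background. Of the cholesterol and lipid genes, 3 of 31 were near a member, Ppard, Lipa and Soat1, and the Ppard member had percentiles of 67.0 and 45.4 and 2 AP-1 matches. Of phagocytic, Fc, complement and lectin receptor genes there were 2 of 29, Itgam and Tyro3. Of 23 AP-1 and ATF genes only Atf3 was near a member (4.35%, 0.110 to 21.9), although the AP-1 element was dense in the members.

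**Figure D5:**
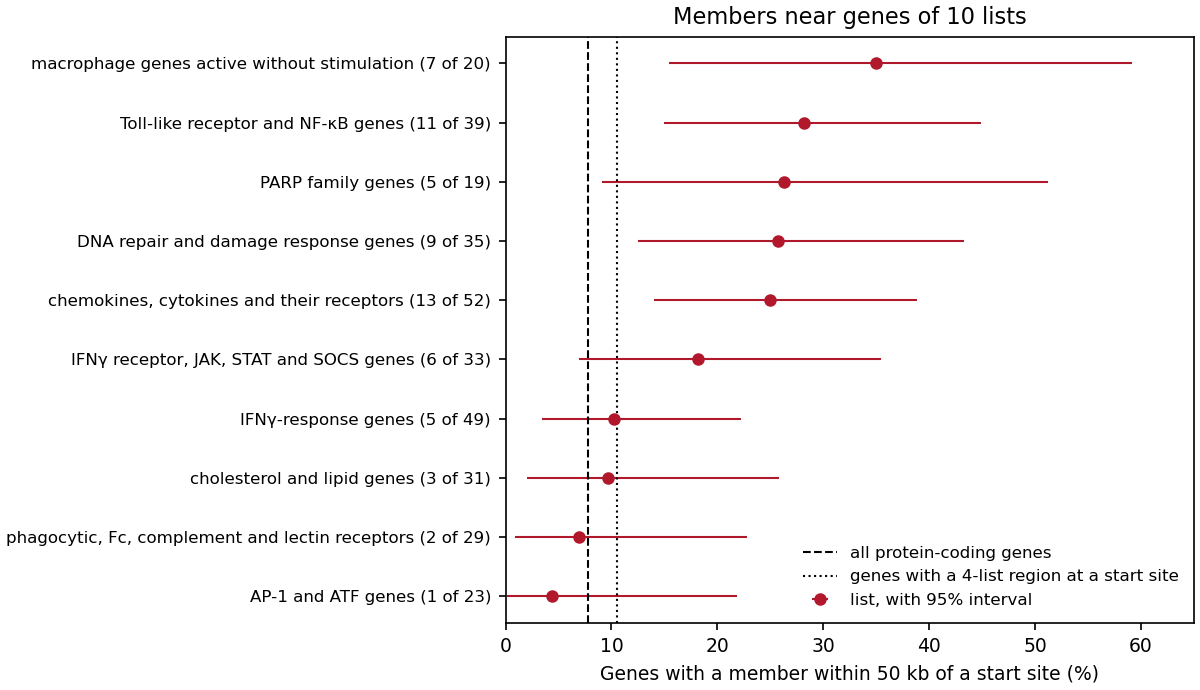
Points give the share of genes of each list, in %, with a member within 50 kb of a start site, with exact 95% intervals of counting error and the number of genes in brackets. The dashed line marks 7.78% of all protein-coding genes and the dotted line 10.5% of genes with a region of all 4 lists at a start site, and the IFNγ-response list, at 10.2%, lies between them.

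Some genes that mark other blood cells also lay near members. Of 7 neutrophil markers, S100a8, S100a9 and Ltf had a member within 50 kb, and of 6 dendritic cell markers Xcr1 did. The S100a8 start site carried a peak in IFNγ 1 h, at percentile 3.01, and in PJ34, at percentile 23.3, and in neither other list. The start sites of Ly6g, Mpo and Elane had a peak in none of the lists. Their part in the member regions was not tested.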

How the data were processed

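H3K27ac ChIP-seq was performed in BMDMs of 4 groups, with 2 ChIP and 2 input samples per group, which were grouped by sample title. Per the study's methods, the authors aligned reads to mm10 with Bowtie, ran MACS on every replicate against its input at a lenient threshold, and kept peaks found in both replicates. The deposited files are 4 peak lists. For each peak the authors gave a whole-number score of 10 to 1000, the fold enrichment over background (a ratio), and −log10 values of p and q. Another deposited column gives the summit offset. The score rose with −log10 p, which was used for percentiles. No read counts were used, so depth is not known and no depth-based interval can be given.

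Peaks were merged, annotated and compared with Python 3.11.15 scripts. Start sites came from all basic transcripts of 21938 protein-coding genes of GENCODE M21, sequence from GRCm38.p6, the same build, and 0 peaks ended past a chromosome end. Regions were placed by the mean position of their summits, with promoters within 1000 bp of a start site. Motifs were counted on both strands over whole regions. Shares have exact Clopper-Pearson and differences Newcombe intervals, and density ratios have exact intervals for Poisson counts. PCR reads are not independent molecules, neighbouring regions are not independent and repeated matches cluster, so all intervals cover counting error only. With 1 list per group no p-value was computed. The functions were tested on simulated lists and sequences.

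The members, gene lists and comparisons were chosen with earlier results of these data known. Named were the 20 members with the highest lower percentile of both peaks, listed genes with a member within 50 kb, and the first 10 genes that held most members. Sequences are 200 bp around the IFNγ summit of the first 6 members, of which 2 are printed, and of the first 4 with TTCCNGGAA, and the AP-1 windows were added later. Alternatives varied the joining of peaks, the peak threshold, list size, windows, GC content and gene distance. Of the genes listed, Cxcl11, Clec7a and Trac were not matched to the annotation. Input samples were not analysed on their own. Some named genes, members and a gene list are not reported here.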

Additional observations from a re-analysis of the deposited data

How the results depend on the processing

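The AP-1 ratios to the 3 compared classes kept their direction, with intervals above 1, under all 9 alternatives. They were 1.39 to 2.29 to the mirror class, 1.39 to 1.85 to regions gained with IFNγ and 1.29 to 1.79 to regions lost with IFNγ. These alternatives were chosen after seeing the data. In 200 bp windows the control TCANTGA had ratios of 1.55 (1.25 to 1.93), 1.06 (0.850 to 1.32) and 1.25 (1.02 to 1.52). Against regions missing from IFNγ 1 h+PJ34 alone, the AP-1 interval included 1 without the Atxn1 member, at 1.08 (0.975 to 1.20). It also did so in windows, at 1.16 (0.969 to 1.38). The number of members fell to 754 when peaks up to 1000 bp apart were joined and to 608 with the higher-scoring 50% of each list. The promoter share was 10.3% with a promoter window of 2500 bp. The promoter share difference from the mirror class became 2.04 points (0.0202 to 4.28) with joined peaks. That from regions gained with IFNγ came to include 0 with lists of equal size, 1.55 points (−0.0461 to 3.14), and with the 2500 bp window, 1.72 points (−0.487 to 3.89). The GAS ratio to the mirror class was 1.23 (1.07 to 1.41) with joined peaks and turned to 0.946 (0.763 to 1.17) in 200 bp windows, where that to regions lost with IFNγ was 1.16 (0.929 to 1.44). The PU.1 ratios in these windows were 0.873, 1.31 and 0.814, and the ratio to regions gained with IFNγ was 0.740 (0.530 to 1.03) at q under 0.01 and 0.757 (0.554 to 1.03) with lists of equal size. The cause was not tested. Of the same kinds of value, 88 kept their call, the AP-1 ratios among them. For the share of IFNγ-response genes near a member, this means only that it stayed within 3.40 to 22.2%. That share was 4.08% with joined peaks and 20.4% within 100 kb. At 10 kb the share was 5.71% for DNA repair genes and 13.5% for cytokine genes. Over all protein-coding genes it was 2.02% at 10 kb and 7.78% at 50 kb. With joined peaks the share of DNA repair genes was 8.57%, and the share over all genes at that setting is not available.

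No paired analysis was possible because the authors had joined the 2 replicates of a group before deposit. Leaving out a replicate was impossible on the same ground. A peak that just missed the threshold of the caller counts as absent, and without read counts this cannot be told apart from loss of the mark.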
